A study of Mus musculus with 6 samples.

Results

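The Toll-like receptors of the innate immune system, their lipopolysaccharide coreceptors Cd14 and Ly96 and the shared adaptor Myd88 were followed in RNA from mouse CD4+CD25+ T cells, a gate used to obtain regulatory T cells. Members were the 9 genes Tlr1, Tlr2, Tlr3, Tlr4, Tlr6, Tlr7, Cd14, Ly96 and Myd88. Every probe set (a group of short oligonucleotides on the array that reports 1 transcript) whose platform annotation named exactly 1 of these symbols was taken, which gave 13 of the 22626 probe sets tested. The 6 samples, each 1 Affymetrix Mouse430a array, were 3 from wild type mice and 3 from mice of the genotype HDAC3-fl/fl_FOXP3cre, all on a C57BL6 background. In the second group the histone deacetylase gene Hdac3 is flanked by loxP sites and a Cre recombinase is named for Foxp3, the lineage factor of regulatory T cells. Those samples are called Hdac3 deleted here, following their titles and genotype field, although their source name reads HDAC11 and their description HDACII, so the labels disagree on the targeted gene. Whether the wild type mice carried the Cre, the ages of the mice and whether samples came from separate animals are not given in the sources used here, so the spread behind each p-value is that of these samples and may be technical. The labels name no batch. The comparison asks how expression differs in these cells when Hdac3 is targeted.

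Toll-like receptors are membrane proteins that recognise conserved microbial molecules through leucine-rich repeats and signal through a cytoplasmic TIR domain. Tlr1, Tlr2, Tlr4 and Tlr6 act mainly at the cell surface, while Tlr3 and Tlr7 act in endosomes and bind RNA. All of the receptors listed here except Tlr3 signal through Myd88, and macrophages, neutrophils and dendritic cells are their best known sites of expression, although T cells also express some of them.

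Values are log2 expression after robust multiarray average (RMA) normalization, and a difference is the Hdac3 deleted mean minus the wild type mean. A change is called when limma's adjusted p, corrected over all 22626 probe sets by the Benjamini-Hochberg method, is under 0.05, and the 2-fold threshold is given beside it. Background was read from 27 bacterial control probe sets, which spanned 2.37 to 5.16 log2 over the 6 samples. For a probe set with a single group mean in that range, the fold is a lower bound measured from its top. Hdac3 itself went from 9.04 ± 0.028 to 8.49 ± 0.024 (SD, n = 3 per group), a difference of -0.55 (limma adjusted p = 0.000125), and the position of its probe set against the deleted exons is not given in the sources used here. Foxp3 was within background in both groups, with means of 3.77 and 3.68, so this defining marker could not be read. The 3 samples of a group correlated with each other at 0.996 to 0.998 (Pearson's r across probe sets, which are not independent replicates), and samples of different groups at 0.921 to 0.923.

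Sequence upstream of the start site was searched for 5 of the 9 genes, in 7 RefSeq windows (GRCm38.p6) of 250 bases. Each window ends just before a transcript start. No window was available for Tlr4, Tlr7 and Ly96. Cd14, the member with the largest rise, was left out of the search, so its upstream sequence was not examined. Tlr1 and Tlr6 are neighbouring genes on chromosome 5, and each had 2 windows. The annotated gene runs to 83841824 for Tlr2, 45411075 for Tlr3 and 64970942 for Tlr6, on the minus strand. The Tlr3 window, both Tlr6 windows and 1 Tlr1 window therefore lay inside the gene, as did most of the Tlr2 window. Those windows precede a transcript start within the gene, not the outermost end of the gene. The windows were searched on both strands for the interferon response element core (GAAA, any 2 bases, GAAA), for the core GAGGAA bound by the myeloid ETS factor PU.1, and for the NF-kB consensus. Those 3 motifs occur in 2.98%, 23.3% and 7.25% of the 32851 windows of that length in the same table. Both kinds of match to the interferon and NF-kB motifs are shown because these factors act downstream of the receptors. In the minus strand windows below, at chr3:83841609-83841858 for Tlr2, chr8:45410381-45410630 for Tlr3, chr5:64959167-64959416 for Tlr6 and chr9:119340019-119340268 for Myd88, capitals mark the matches, read 5′ to 3′ along the gene.
Tlr2: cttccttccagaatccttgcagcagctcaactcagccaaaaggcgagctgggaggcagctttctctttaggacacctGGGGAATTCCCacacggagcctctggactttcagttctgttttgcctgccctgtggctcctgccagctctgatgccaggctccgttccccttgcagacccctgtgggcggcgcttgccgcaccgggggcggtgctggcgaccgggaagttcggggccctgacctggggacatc
Tlr3: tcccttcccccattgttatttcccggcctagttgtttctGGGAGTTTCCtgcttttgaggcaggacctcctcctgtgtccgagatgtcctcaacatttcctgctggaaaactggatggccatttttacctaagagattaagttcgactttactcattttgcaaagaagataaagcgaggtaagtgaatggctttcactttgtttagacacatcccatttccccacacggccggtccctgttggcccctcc
Tlr6: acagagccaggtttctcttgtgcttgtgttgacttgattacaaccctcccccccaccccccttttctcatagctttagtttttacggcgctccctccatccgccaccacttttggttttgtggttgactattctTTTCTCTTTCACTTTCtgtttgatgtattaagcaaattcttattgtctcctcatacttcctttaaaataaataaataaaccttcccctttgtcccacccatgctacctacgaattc
Myd88: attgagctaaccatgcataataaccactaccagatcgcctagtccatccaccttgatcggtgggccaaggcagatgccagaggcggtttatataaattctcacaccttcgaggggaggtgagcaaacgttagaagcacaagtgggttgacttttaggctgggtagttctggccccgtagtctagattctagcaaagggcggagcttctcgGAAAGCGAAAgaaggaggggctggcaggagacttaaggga
The Tlr2 window held 3 overlapping NF-kB matches, starting 173 and 172 bases before the start, and the Tlr3 window held 1 at 211 bases before it. The Tlr6 window held 2 overlapping interferon element matches on the opposite strand, 116 and 110 bases before the start, and the Myd88 window held 1 at 40 bases before it. The second Tlr6 window had no match, and the only PU.1 core was in 1 of the 2 Tlr1 windows. No motif was therefore common to the 5 genes in these windows, and a match is a description of letters, not of a bound site.

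Expression of these genes was higher in the Hdac3 deleted samples, most of all for the lipopolysaccharide receptor components Cd14 and Tlr4. Of the 13 probe sets 10 rose, none fell and 3 did not pass. Over all probe sets 20.1% rose and 37.4% fell. With the 2-fold threshold 8 of the 13 rose, beside 7.91% of all probe sets. The 3 samples of each group did not overlap in 11 of the 13, all higher in Hdac3 deleted samples, where 22.3% of all probe sets lay that way. The median difference over the 13 was 1.35, against -0.17 over all probe sets. In pooled RNA, a different number of cells of a type and a different amount of RNA per cell cannot be told apart, and this holds for every value below.

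**Figure D1:**
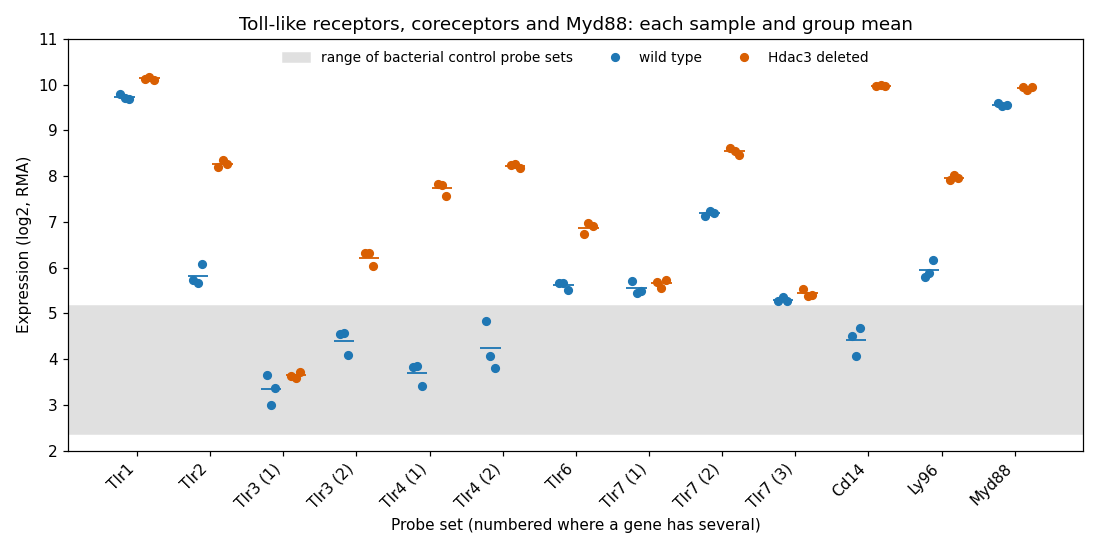
Log2 RMA expression of the 13 member probe sets (x axis, numbered within a gene in the order of their identifiers) in each sample, with wild type in blue and Hdac3 deleted in orange. Short lines are group means (n = 3) and the grey band is the range of the bacterial control probe sets, 2.37 to 5.16. Cd14 and both Tlr4 probe sets sit in the band in wild type and far above it in Hdac3 deleted samples, while Tlr1 and Myd88 are bright in both groups.

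The lipopolysaccharide receptor is built from Tlr4 and its partner Ly96 (MD-2), which holds the lipid, with Cd14 delivering the ligand. Cd14 (probe set 1417268_at) measured 4.50, 4.06 and 4.67 log2 in the wild type group against 9.96, 9.99 and 9.97 in the Hdac3 deleted group. All wild type samples were inside the background range, and the Hdac3 deleted samples differed among themselves by far less than they did from wild type. Its level rose by 5.56 (SE 0.148, limma adjusted p = 1.35e-07), at least 28.2-fold. Only 0.592% of all probe sets had a difference this high or higher. The first Tlr4 probe set (1418162_at) measured 3.82, 3.84 and 3.41 in the wild type group against 7.84, 7.81 and 7.57 in the Hdac3 deleted group. The second (1418163_at) measured 4.83, 4.06 and 3.81 in the wild type group against 8.24, 8.26 and 8.18 in the Hdac3 deleted group. Wild type samples of both lay within background, and the 2 probe sets moved alike. Tlr4 thus rose by 4.05 (SE 0.135, limma adjusted p = 4.26e-07) and 3.99 (SE 0.239, adjusted p = 8.46e-06), at least 5.99-fold and 8.41-fold. Ly96 (1449874_at) measured 5.79, 5.89 and 6.16 in the wild type group against 7.92, 8.02 and 7.96 in the Hdac3 deleted group. It was above background in every sample, the groups did not overlap, and its level rose by 2.02 (SE 0.102, limma adjusted p = 3.39e-06), which is 4.06-fold. The interval of its difference, 1.78 to 2.26, lay below those of Tlr4, from 3.73 to 4.37 and from 3.43 to 4.56.

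Tlr2 pairs with Tlr1 or Tlr6 to recognise bacterial lipopeptides, and the 3 chains changed by different amounts. Tlr2 (1419132_at) measured 5.73, 5.66 and 6.07 in the wild type group against 8.19, 8.35 and 8.26 in the Hdac3 deleted group. The NF-kB matches shown above for Tlr2 lie inside its annotated gene. The lowest Hdac3 deleted sample stood 2.12 log2 above the highest wild type sample, and the level rose by 2.45 (SE 0.114, limma adjusted p = 2.30e-06), or 5.46-fold. Tlr6 (1421352_at) measured 5.66, 5.67 and 5.52 in the wild type group against 6.74, 6.97 and 6.91 in the Hdac3 deleted group. It was modestly above background in wild type and rose by 1.26 (SE 0.083, limma adjusted p = 1.39e-05), or 2.39-fold. Tlr1 (1449049_at), the neighbour of Tlr6 in the genome, measured 9.78, 9.70 and 9.68 in the wild type group against 10.13, 10.17 and 10.10 in the Hdac3 deleted group. The probe set was bright in both groups, which did not overlap, yet its rise of 0.41 (SE 0.060, limma adjusted p = 0.000857) was 1.33-fold and short of the 2-fold threshold. A difference as high or higher than that of Tlr1 was seen in 15.4% of all probe sets, against 2.86% for Tlr2 and 6.46% for Tlr6.

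The endosomal RNA receptors Tlr7 and Tlr3 gave answers that depended on the probe set. Tlr7 recognises single-stranded RNA, and its brightest probe set (1422010_at) measured 7.13, 7.23 and 7.20 in the wild type group against 8.61, 8.55 and 8.46 in the Hdac3 deleted group. It was above background in wild type, the groups were clearly apart, and its level rose by 1.35 (SE 0.067, limma adjusted p = 3.20e-06), or 2.55-fold. The other 2 Tlr7 probe sets were dim. Set 1419848_x_at measured 5.70, 5.45 and 5.49 in the wild type group against 5.69, 5.56 and 5.72 in the Hdac3 deleted group, with overlapping groups. Set 1449640_at measured 5.27, 5.35 and 5.26 in the wild type group against 5.54, 5.39 and 5.40 in the Hdac3 deleted group, apart by only 0.039. Neither passed the test, with differences of 0.11 (95% interval -0.10 to 0.32, limma adjusted p = 0.320) and 0.15 (-0.01 to 0.31, adjusted p = 0.0972). Both intervals ended far below the 1.19 to 1.51 of the brightest set, so these sets do not report the same change. With median centring the differences of the dim sets were -0.051 and -0.011, and with cyclic loess 0.29 and 0.33, so they have no settled direction.

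Tlr3, which recognises double-stranded RNA and signals without Myd88, was near background in wild type. Probe set 1422782_s_at measured 4.54, 4.57 and 4.08 in the wild type group against 6.31, 6.31 and 6.03 in the Hdac3 deleted group. The wild type samples lay within background and the Hdac3 deleted samples above it, and the level rose by 1.82 (SE 0.149, limma adjusted p = 4.32e-05), at least 2.09-fold. The suffix of this identifier marks probes that can match more than 1 transcript. The other set, 1422781_at, measured 3.64, 3.00 and 3.36 in the wild type group against 3.63, 3.58 and 3.71 in the Hdac3 deleted group. All 6 values were inside the background range and the groups overlapped, so its difference of 0.31 (limma adjusted p = 0.123) has no readable direction. The Tlr3 rise therefore rests on 1 of 2 probe sets.

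Myd88, the adaptor that links most of these receptors to the IRAK kinases, was expressed in both groups and moved little. Its probe set (1419272_at) measured 9.59, 9.54 and 9.55 in the wild type group against 9.94, 9.89 and 9.95 in the Hdac3 deleted group. The groups did not overlap, and the level rose by 0.37 (SE 0.056, limma adjusted p = 0.00107), or 1.29-fold. A difference that high or higher was found in 16.2% of all probe sets. Myd88 and Tlr1 were the members that rose without reaching 2-fold.

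Ordered by the brightest probe set of each gene, the differences ran from Cd14 (5.56) through Tlr4 (3.99), Tlr2 (2.45), Ly96 (2.02), Tlr3 (1.82), Tlr7 (1.35), Tlr6 (1.26) and Tlr1 (0.41) to Myd88 (0.37). The 95% intervals of neighbours in this order overlapped for Tlr2 and Ly96, for Ly96 and Tlr3, for Tlr3 and Tlr7, for Tlr7 and Tlr6 and for Tlr1 and Myd88. They did not overlap between Cd14 and Tlr4, between Tlr4 and Tlr2, or between Tlr6 and Tlr1. Differences of Cd14, Tlr4 and Tlr3 start from background and so have only a lower bound, which weakens any order among them. Choosing the brightest probe set favours one that is high in a group, so the count over all 13 probe sets is the fuller account.

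**Figure D2:**
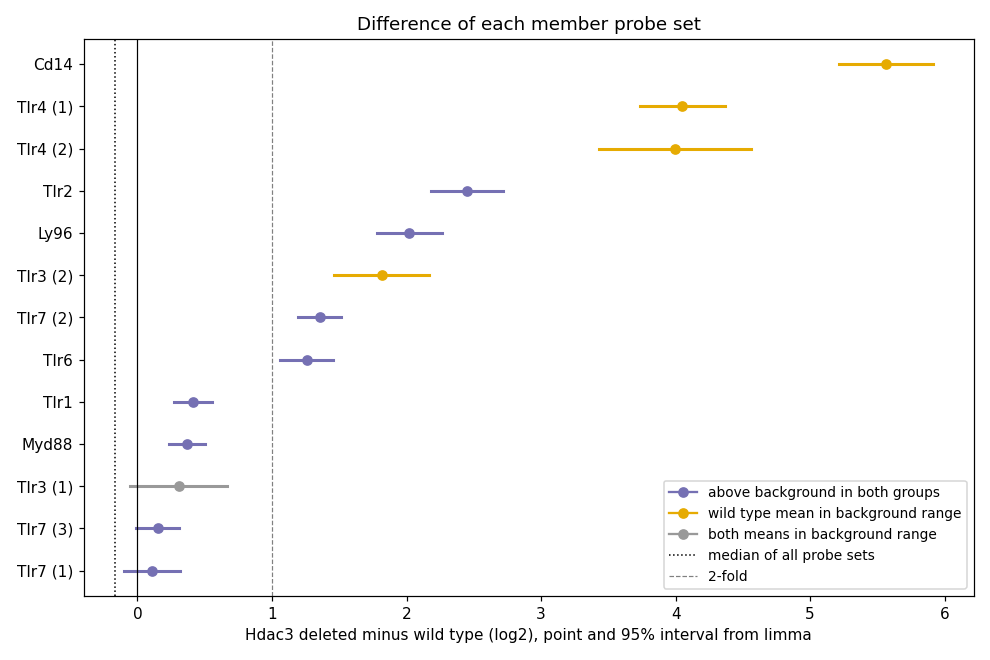
Difference between Hdac3 deleted and wild type samples (log2, point with the 95% interval from limma, n = 3 per group) for the 13 member probe sets, ordered by size. Colours give whether group means lay in the background range, the dotted line is the median over all probe sets (-0.17) and the dashed line is 2-fold. The 8 probe sets from Tlr6 to Cd14 lie beyond 2-fold, and the lowest 3 have intervals that reach 0.

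Likeness to other genes was measured as the root mean square distance between the 6 log2 values of 2 probe sets, each centred on its own mean, over 1 probe set per gene. The samples of a group were so alike that this distance mostly reflects the size of the group difference. A close gene is therefore one with a similar difference, and joint regulation with the member was not tested. For Cd14 the closest were Anpep, which encodes aminopeptidase N, at a distance of 0.0546, and Plxnb2, a plexin, at 0.0762. Their own differences were 5.59 and 5.47. Wild type values of Cd14, Tlr4 and Tlr3, and of their close genes Anpep, Trem3, Sult1a1 and Anxa9, were in the background range, as were those of Agap1 and Selenom, so these distances rest in part on values that could not be read. The closest to Tlr4 were Trem3, a myeloid receptor of the TREM family, at 0.165, and the sulfotransferase gene Sult1a1 at 0.194. Tlr2 was closest to Cemip2 (0.0432) and Agap1 (0.0708). Ly96 was closest to the transferrin receptor gene Tfrc (0.0605) and Selenom (0.0713). The pairs were Mapkapk2 (0.0346) and Uap1l1 (0.0349) for Tlr7, Mvp (0.0560) and Chst15 (0.0579) for Tlr6, and Plxdc2 (0.100) and Anxa9 (0.116) for Tlr3. Tlr1 was closest to Zdhhc12 (0.00931) and Gclm (0.0183), and Myd88 to Rab5c (0.0117) and Dip2b (0.0165). Many genes lay close to the members that moved little, with 3611 within 0.25 of Myd88 and 3140 within 0.25 of Tlr1. The counts were 604 for Tlr6, 553 for Tlr7, 249 for Ly96, 174 for Tlr3 and 171 for Tlr2. Few lay close to those that moved most, with 19 for Cd14. Tlr4 had fewer still, 6, although its difference was smaller than that of Cd14.

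Of the other Toll-like receptor genes 3 had a usable probe set. Tlr8, the neighbour of Tlr7 on the X chromosome, measured 4.42, 4.20 and 3.91 in the wild type group against 5.36, 5.17 and 5.14 in the Hdac3 deleted group. It rose by 1.04 (limma adjusted p = 0.000427), but only to the edge of the background range, at least 1.05-fold. Tlr9, which recognises unmethylated CpG DNA, measured 5.33, 5.38 and 5.63 in the wild type group against 5.26, 5.38 and 5.40 in the Hdac3 deleted group and did not pass (-0.10, limma adjusted p = 0.387). It was called lower with median centring (-0.26, adjusted p = 0.0379) and was 0.083 with cyclic loess, so it has no settled direction. Tlr5, the flagellin receptor, was within background in both groups and differed by -0.33 (limma adjusted p = 0.147), though it was called lower with median centring (-0.49, adjusted p = 0.0446). Tlr11, Tlr12 and Tlr13 are not analysed here.

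Genes that carry, fold or assist the receptors were mostly higher. All 8 measured coreceptor, chaperone and accessory genes rose, 5 of them at least 2-fold, with a median of 1.87. Over all genes, 1 probe set each, 22.0% rose, 38.0% fell, 9.04% rose at least 2-fold and the median was -0.17. Ly86 (MD-1) went from 4.68, 4.93 and 4.55 to 12.01, 11.93 and 11.99, at least 113-fold. Its partner Cd180, a receptor-like relative of Tlr4, went from 4.56, 5.35 and 4.67 to 8.16, 8.28 and 8.19, at least 8.30-fold. Unc93b1, which carries the endosomal receptors out of the endoplasmic reticulum, was measured above background in both groups. It went from 7.01, 7.30 and 7.08 to 10.86, 10.81 and 10.81 and rose by 3.69 (SE 0.087, limma adjusted p = 7.67e-08), beside 1.35 for the brightest Tlr7 set. The lipopolysaccharide binding protein gene Lbp rose by 2.00. Hsp90b1 and Cnpy3, chaperones of the receptors chosen here after their values were seen, rose by 0.82 and 0.86. Cd36 passed the test but stayed within background in both groups. Its other probe sets, also within background, differed by 0.51 and -0.22 (limma adjusted p = 0.00303 and 0.0671), so its direction could not be read.

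The signalling machinery below the receptors was split. Of 25 listed adaptors and proximal kinases 18 were measured, without Irak2, Irak4, Traf3, Ticam1, Ticam2, Chuk and Ripk1. Among the 18, 8 rose, 6 fell and 4 did not pass, with a median of 0.12. These counts became 6 and 8 with median centring and 10 and 3 with cyclic loess, so the list as a whole has no settled direction. The Tec family kinase gene Btk went from 5.43, 5.26 and 5.42 to 9.15, 9.02 and 9.13, a rise of 3.73. Tirap, the adaptor that brings Myd88 to Tlr2 and Tlr4, rose by 1.68, and Map3k8, a kinase of the ERK branch, by 1.60. At the brightest probe set of each gene none of this list fell by 2-fold, but among the other sets 1 of Peli1 fell by 1.04 and 1 of Ikbkg by 1.06, both past 2-fold and both chosen after their values were seen. The brightest Peli1 set fell by 0.77, and the brightest Ikbkg set did not pass (0.10, limma adjusted p = 0.198) while its remaining 2 sets fell by 0.51 and 0.83. Of 11 downstream transcription factors 6 rose, 3 fell and 2 did not pass, with a median of 0.36, and 5 fell with median centring. Irf8, Cebpb and Irf5 rose by 3.09, 2.97 and 2.34 and Atf3 at least 2.86-fold. A second Irf5 probe set differed by -0.054 (limma adjusted p = 0.654), so that rise rests on 1 of 2 sets. Irf3 and Rela, which act below these receptors in many cell types and were chosen after their values were seen, fell by 0.85 and 0.23, but Rela was -0.020 with cyclic loess (adjusted p = 0.798).

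Negative regulators showed no shared direction. Of 10 genes measured out of 14 listed, 4 rose and 4 fell, none by 2-fold, with a median of 0.12. With cyclic loess 6 rose and 2 fell. Dusp1, a phosphatase of MAP kinases, rose by 0.95, and Sigirr, an inhibitory member of the same receptor superfamily, fell by 0.98, both chosen after their values were seen. Of the 5 other receptors that signal through Myd88, 1 rose and 2 fell, with a median of -0.12. Il18r1, a chain of the interleukin-18 receptor found on T cells, went from 9.44, 9.40 and 9.49 to 8.08, 8.23 and 8.12 and fell by 1.30 (limma adjusted p = 3.53e-06). Its partner Il18rap, chosen after its value was seen, rose by 0.77.

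Genes known to be induced by Toll-like receptor signalling were mostly higher. Of 24 measured, 17 rose, none fell and 7 did not pass. The median was 2.06, and 15 of the 17 rose by 2-fold or more. The acute phase gene Saa3 rose by 6.59, and Lcn2, which binds bacterial iron carriers and is also on the neutrophil list, rose at least 23.5-fold. Ptgs2, which encodes the inducible cyclooxygenase, was at least 7.75-fold higher and the chemokine gene Ccl3 at least 5.64-fold. A second Ptgs2 probe set stayed within background in both groups. Among cytokine genes chosen after their values were seen, Il1b rose by 3.36, from the edge of the background range. Tnf measured 8.55, 8.51 and 8.50 in the wild type group against 8.36, 8.42 and 8.40 in the Hdac3 deleted group and did not pass (-0.13, limma adjusted p = 0.0909), though it was called lower with median centring (-0.29, adjusted p = 0.00288) and was 0.056 with cyclic loess. Il6, counted among the 17, and Il12a, Il12b and Ifnb1 were within background in both groups. Of 9 sensors outside the Toll-like family that were measured, out of 15 listed, 5 rose and 2 fell, with a median of 0.71. The C-type lectin genes Clec7a, Clec4n and Clec4e were at least 48.8-fold, 40.0-fold and 8.33-fold higher, and the inflammasome sensor gene Nlrp3 rose by 1.90.

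**Figure D3:**
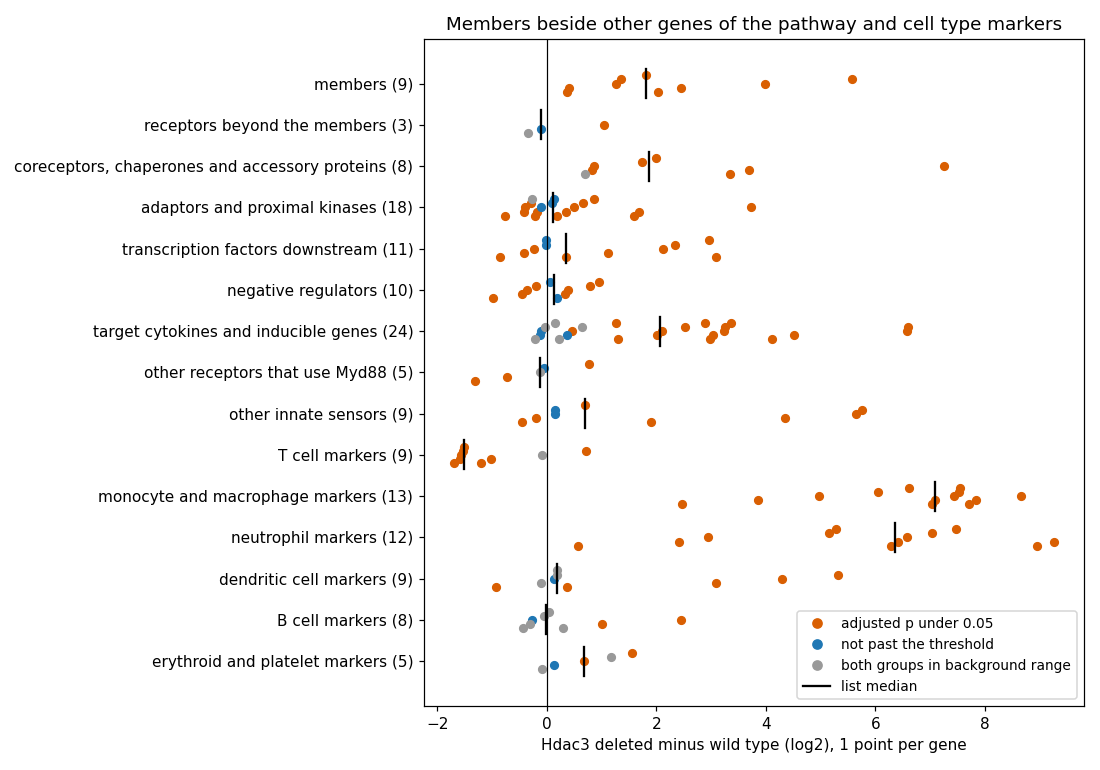
Difference between Hdac3 deleted and wild type samples (log2, x axis) for the members, for other genes of the pathway and for cell type markers, 1 point per gene at its brightest probe set, with the number of genes in parentheses. Orange points passed adjusted p 0.05, blue points did not, grey points lay in the background range in both groups and black lines are list medians. The member median, 1.82, lies between that of the T cell markers (-1.51) and those of the macrophage and neutrophil markers (7.08 and 6.35).

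Markers of myeloid cells moved with the members. All 13 measured monocyte and macrophage markers rose, each at least 2-fold by its fitted difference, with a median of 7.08. The log2 of their summed linear signal ranged from 9.05 to 9.12 in wild type and from 16.43 to 16.48 in Hdac3 deleted samples. Csf1r, the growth factor receptor of macrophages, rose by 7.54, and Adgre1, a macrophage surface receptor, was at least 99.6-fold higher, whereas 7 of the 13 were inside the background range in wild type. All 12 neutrophil markers rose, 11 of them at least 2-fold, with a median of 6.35 and summed signals of 8.49 to 8.94 and of 15.22 to 15.25. Of 9 dendritic cell markers 4 rose and 1 fell, with summed signals of 12.03 to 12.04 and of 12.67 to 12.69. The counts became 3 and 2 with median centring and 7 and 1 with cyclic loess. Itgax and Irf8, already given among the transcription factors, rose by 4.29 and 3.09, and Batf3 was at least 36.7-fold higher. Flt3 rose by 0.38, but did not pass with median centring (0.22, limma adjusted p = 0.105). Ccr7, chosen after its value was seen, fell by 0.92. It was the brightest of the list in wild type (mean 11.62) and so weighed most in the wild type sums. Zbtb46, Xcr1 and Cd209a were in the background range in both groups, and Bst2 did not pass. Of 8 B cell markers 3 rose and 1 fell, with sums of 8.67 to 8.80 and of 10.08 to 10.20. With median centring 2 rose and 4 fell, and with cyclic loess 4 rose and none fell. Of these 8, 5 were in the background range in both groups, among them Ms4a1 and Pax5. Fcer2a and Blk were also among the 5, and are counted as risen and fallen on the deposited scale. Above background, Cd22 rose by 2.45 and Cd79b by 1.01, and Cd79a did not pass (-0.26, limma adjusted p = 0.0757). Of 5 erythroid and platelet markers 3 rose, with sums of 7.48 to 7.72 and of 8.20 to 8.31, but 1 of the 3, Ppbp, was in the background range in both groups. In contrast 7 of 9 T cell markers fell and 1 rose, with a median of -1.51. Their sums were 14.83 to 14.92 for wild type samples and 13.55 to 13.58 for Hdac3 deleted samples. The marker that rose was Il2ra, which encodes the CD25 of the gate. Its brightest probe set was higher by 0.71 (limma adjusted p = 4.17e-05) and its other set by 0.33 (adjusted p = 0.00839). The part of these cell types in the rise of the receptor genes was not tested. Every member difference, as measured, was smaller than the median of the macrophage markers. The differences of those markers ranged from 2.47 to 8.65, so Cd14 and the Tlr4 sets lay above the lowest of them.

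The scale on which arrays are set against each other moved the member differences together. With median centring the median over all probe sets was -0.33, and with cyclic loess -0.00063. Over the 14 alternatives other than the CD3 scale, Cd14 ranged from 5.39 to 5.74, Tlr2 from 2.29 to 2.62, Ly96 from 1.86 to 2.19 and the brightest Tlr7 set from 1.19 to 1.53. Of these, the replicate block, the methods' t-test, the filter on dim probe sets and the trended robust prior leave a difference unchanged. The ranges thus come from the scalings, the array weights and leaving out each sample. Tlr1 ranged from 0.25 to 0.62 and Myd88 from 0.21 to 0.57, with largest adjusted p-values of 0.00706 and 0.0154, so their direction held although their size did not settle. Relative to the T cell receptor chains Cd3d, Cd3e, Cd3g and Cd247, whose mean went from 12.22 to 10.75, all 13 member probe sets were higher, Myd88 by 1.84 and Tlr1 by 1.88. On that scale 98.6% of all probe sets were higher with a median of 1.30. That scale moves every probe set by the same amount, so the place of Myd88 and Tlr1 among all probe sets is the one given above.

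**Figure D4:**
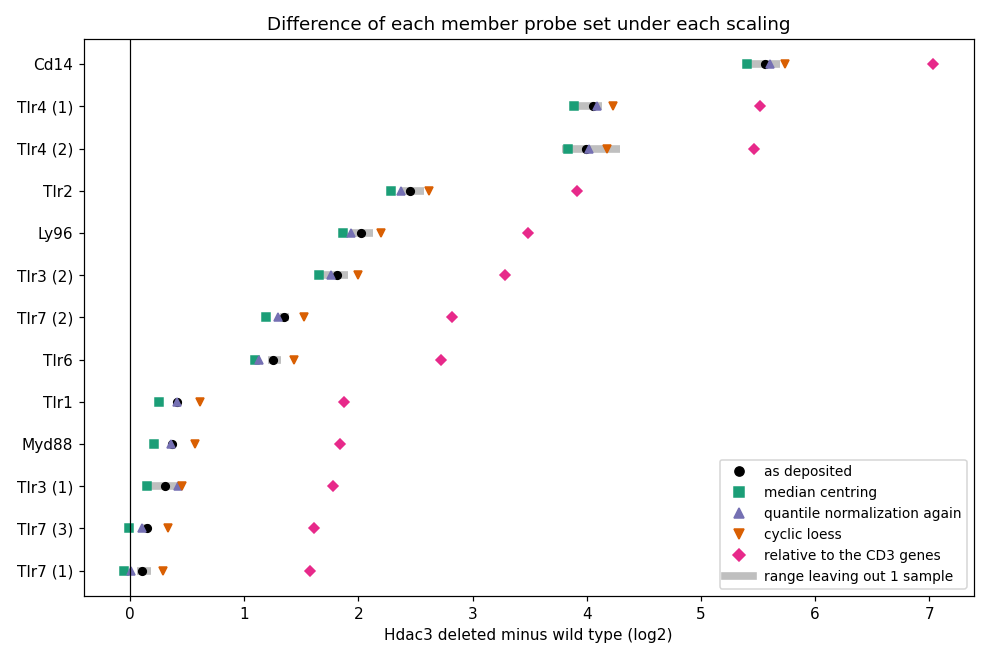
Difference of each member probe set (log2, x axis) as deposited (black), with median centring (green), quantile normalization again (purple), cyclic loess (orange) and relative to the CD3 genes (pink), with the grey bar giving the range when 1 sample is left out. The order of the probe sets is nearly the same under each scaling, and the 2 dim Tlr7 sets cross 0 with median centring. Median centring and the CD3 scale move every difference by the same amount, so they cannot change the order.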

How the data were processed

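For each of the 6 samples 100 ng of total RNA was labelled and run on 1 Affymetrix Mouse430a array. The authors used RMA in MAYDAY 2.12, per the labels, and deposited log2 values for each probe set. RMA gives the arrays a like distribution, so a change in total RNA per cell cannot be seen. The number of arrays limits the precision.

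Without 64 Affymetrix controls, 22626 of the 22690 probe sets remained, of which 20380 had 1 symbol, 691 several and 1555 none. All 9 member genes matched by symbol. For other lists a gene was represented by its brightest probe set on average (12393 genes). Sample titles gave the groups. The two-sided test was limma 3.58.1 (R 4.3.3, lmFit and then eBayes), in place of the authors' Student's test, and p-values were adjusted over all 22626 probe sets by Benjamini-Hochberg. Plots used Python 3.11.15 and matplotlib 3.10.9.

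The members and lists were chosen with earlier results of these data known. Genes named by rule were every member, every measured Toll-like receptor, leading markers and the 2 genes most like each member. Each pathway list added up to 4 genes with the largest difference past adjusted p 0.05 and 2-fold without overlap. Other named genes of the lists fall outside that rule and were picked with their values known, also where that is not said beside them. On data simulated from this comparison over 22626 probe sets, limma recovered 56%, 90%, 98% and 100% of probe sets changed by 0.5, 1, 2 and 4 log2. That simulation changed 50 probe sets at each size and left 22426 unchanged, of which 9 were called. In the data 13032 probe sets passed adjusted p, a far larger share, so these rates need not hold here. Same-numbered samples correlated at 0.0924, 0.0839 and -0.189 in their deviations from group means. Differently numbered samples ranged from -0.249 to 0.206. The check thus showed no pairing by number, but with 3 samples per group it could not exclude it. Alternatives were the replicate block, the methods' t-test, 4 scalings, array weights, a filter on dim probe sets, leaving out each sample, a trended robust prior, other fold thresholds and other probe set choices.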

Additional observations from a re-analysis of the deposited data

How the results depend on the processing

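The count of member probe sets past both thresholds was 8 with the replicate number as a block, with the methods' t-test, with median centring, with quantile normalization again, with cyclic loess and without any 1 sample, and 7 with 1 probe set per gene or without the probe sets whose suffix marks several possible transcripts. The replicate block gave 2769 probe sets over the whole array and 34 pathway genes, as without it, and changed no call among the members. Leaving out 1 sample gave 2735 to 2823 probe sets, 8 member probe sets each time and 33 to 35 pathway genes. Relative to the CD3 genes the counts were 18298, 13 and 83, against 2769, 8 and 34, because that scale moves every difference by the same 1.47 log2. With a 1.5-fold threshold 5841 probe sets passed, and with adjusted p alone 13032 probe sets and 67 pathway genes. Among all probe sets past both thresholds 64.6% were higher in Hdac3 deleted samples, which became 50.7% after median centring and 77.8% after cyclic loess. Calls of members by adjusted p changed only for the dim sets of Tlr7 and Tlr3. Tlr7 set 1419848_x_at was -0.051 after median centring and 0.29 after cyclic loess (limma adjusted p = 0.0138), and set 1449640_at was -0.011 and 0.33 (0.00472). Tlr3 set 1422781_at, inside the background range, passed with quantile normalization again (0.42, adjusted p = 0.0364), cyclic loess (0.45, 0.0297), array weights (0.39, 0.0412) and without wild type replicate 1 (0.46, 0.0175). That Tlr3 set is removed by the filter on dim probe sets and has no value there. The 3 sets also passed relative to the CD3 genes. Signal near background limits Tlr3, Tlr4 and Cd14 to lower bounds.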
